A study of Mus musculus with 12 samples.

Results

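The mitochondrial fatty acid oxidation enzymes described here are Cpt1a, Cpt2, Acadvl, Acadl, Acadm, Acads, Hadha, Hadhb, Acaa2 and Eci1. They were taken by symbol from the 54392 gene rows of the deposited table, and 10 of 10 were found. Total RNA was sequenced from NIH-3T3, a fibroblast line grown from mouse embryos, in 4 groups of 3 libraries. The groups KO1 (genotype Crls1KO1), KO2 (Crls1KO2) and KO3 (Crls1KO3) are lines that each grew from 1 cell, sorted 72 hours after transfection with a plasmid for Cas9 and a guide RNA to Crls1, and the WT group has the genotype Crls1WT. Crls1 encodes cardiolipin synthase, which makes cardiolipin, the phospholipid typical of the inner mitochondrial membrane. Per the labels, all groups were grown in a medium with 4.5 g/L glucose, 2 mM glutamine, 10% serum, 1 mM pyruvate and 50 µg/ml uridine. Each edited line is 1 clone, so what the edit did and what set that founder cell apart cannot be told apart. The labels do not say whether the 3 libraries of a group came from separate cultures or whether the WT cells were sorted, so p-values measure only the spread between these libraries, which may be technical.

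Fatty acid oxidation breaks long acyl chains down to acetyl-CoA inside mitochondria. Acyl groups cross the membranes as carnitine esters, made by CPT1 on the outer membrane and turned back into acyl-CoA by CPT2 on the inner membrane. An acyl-CoA dehydrogenase, chosen by chain length, then takes electrons and passes them to the respiratory chain through the electron transfer flavoprotein. For long chains, the trifunctional protein, built from HADHA and HADHB, hydrates, oxidises and cleaves the product. ACAA2 is a thiolase for medium chains, and ECI1 moves the double bond of unsaturated chains so that the cycle can go on. CPT1 is the step held back by malonyl-CoA, and many of these genes are known targets of PPAR and ERR nuclear receptors with the coactivator PGC-1α. Human HADHA has also been reported to acylate monolysocardiolipin, a step of cardiolipin remodelling.

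Libraries held 32929242 to 42211807 reads. Crls1 RNA was lower in the lines, at 210.4 ± 2.67 normalized counts in KO1, 349 ± 21.1 in KO2 and 381 ± 23.9 in KO3, against 815 ± 68.4 in WT (SD, n = 3 each), which leaves RNA from the locus in every line. WT replicate 1 stood apart from its group: the chi-square over genes, per degree of freedom, was 53.3 and 56.5 between it and the other WT libraries, 17.5 between WT replicates 2 and 3, and 4.68 to 25.7 within clones. Results that turn on WT replicate 1 are given with and without it. The summed count of 8 fibroblast markers was 792246 to 828809 in KO1, 871694 to 917654 in KO2 and 851077 to 869459 in KO3, against 823506 to 903291 in WT.

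The stretches of sequence below come from RefSeq promoters on GRCm38.p6, and show where the hexamer AGGTCA, the core bound by PPAR, RXR and ERR receptors, occurs near the start of an oxidation enzyme, and how close the trifunctional genes lie. The promoter window ran from 250 bases before to 50 bases after the start, and 9 of the 10 genes had an entry. Capitals mark AGGTCA or, where it lies on the other strand, TGACCT.
Cpt1a, chr19:3323182-3323237, + strand: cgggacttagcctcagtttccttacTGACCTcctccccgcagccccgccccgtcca
Acadvl, chr11:70015485-70015540, - strand: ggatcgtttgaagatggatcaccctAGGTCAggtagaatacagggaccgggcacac
Acadm, chr3:153944862-153944893, - strand: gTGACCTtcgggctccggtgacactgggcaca
Hadha to Hadhb, chr5:30155163-30155247, + strand: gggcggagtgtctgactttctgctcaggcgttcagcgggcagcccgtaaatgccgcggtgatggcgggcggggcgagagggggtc

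AGGTCA lay 94 bases before the start in Cpt1a, 87 in Acadvl and 249 in Acadm. Read on both strands, it was in 3 of the 9 windows, and in 16.3% of all 32851 promoters. The direct repeat of AGGTCA with 1 base between the copies, the usual PPAR-RXR element, was in 0 of the 9 windows and in 0.0396% of all promoters. The ERR element TNAAGGTCA was in 0 of the 9 and in 1.28% of all, and each copy of it holds AGGTCA. A match is a run of letters and not a measured site, and these windows are short. Hadha and Hadhb lie head to head on chromosome 5 with 85 bases between their annotated ends, the last sequence above. That stretch was 69.4% G and C, against a median of 52.7% over all promoter windows, which are longer than it. In GENCODE M21 none of the stretches printed overlaps an exon, and that of Cpt1a lies inside the first intron of an isoform with an upstream start.

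**Figure D1:**
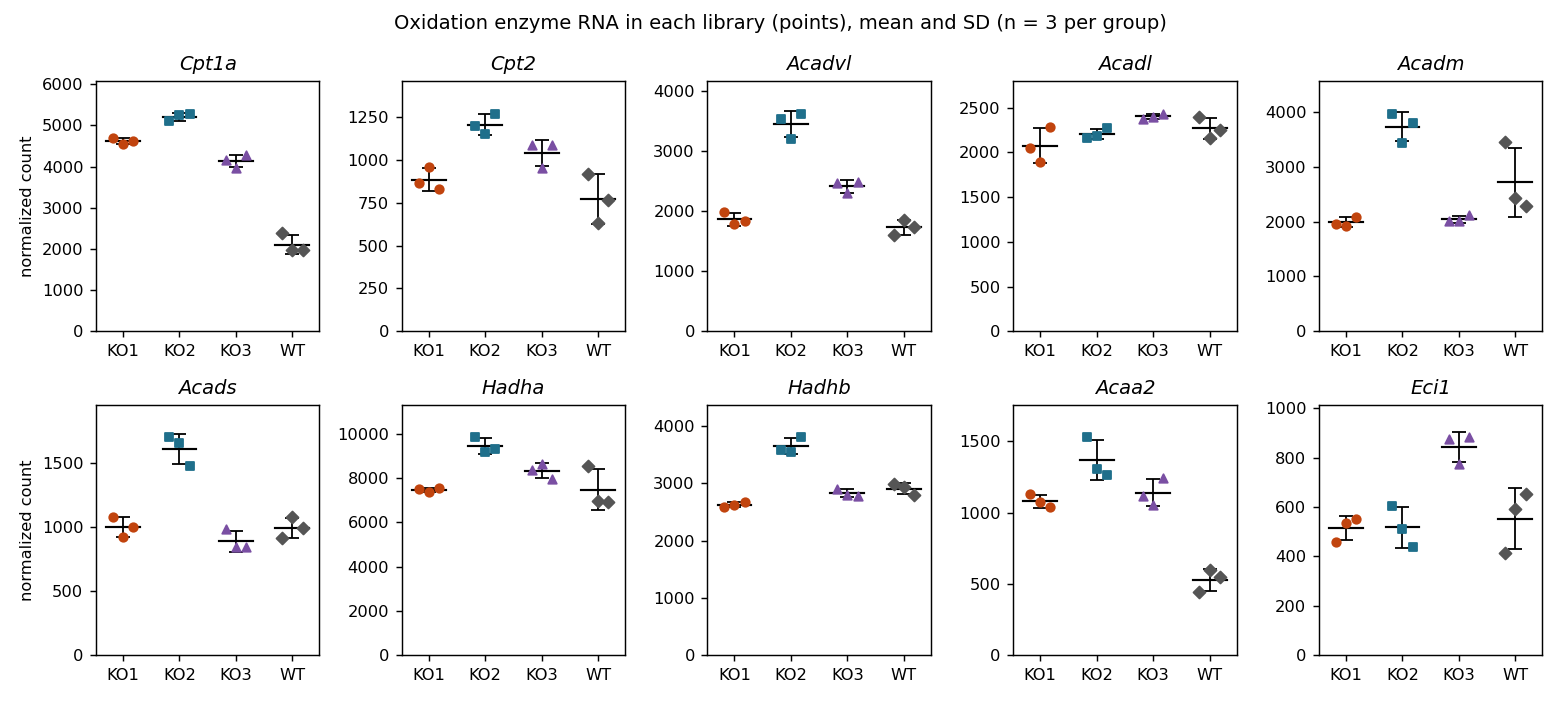
Normalized count of each oxidation enzyme in each library (points), with group mean and SD (bars, n = 3). Columns run KO1, KO2, KO3, WT, and each axis starts at 0. Cpt1a and Acaa2 were above WT in every library of the 3 clones, while Acads, Hadhb and Acadvl stood highest in KO2.

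Set against WT, RNAs of Cpt1a and of Acaa2, the medium-chain thiolase, rose in all 3 clones, and no other gene of the set did. Of the 10 genes, KO1 had 2 rises and 2 falls, KO2 had 8 rises and 0 falls, and KO3 had 5 rises and 1 fall (limma, adjusted p under 0.05 over the 15073 genes tested). All 10 passed the filter on low values, with at least 413 normalized counts in every library. Many genes changed in these lines. Of all genes tested, 52.3% were called in KO1 (26.9% up, 25.4% down), 60.4% in KO2 (29.9% up, 30.5% down) and 54.1% in KO3 (26.8% up, 27.3% down). The 2 that rose in KO1 are thus no more than that background, while the 8 that rose in KO2 stand against a background of 29.9%. The median log2 difference from WT of the 10 genes was 0.01 in KO1, 0.57 in KO2 and 0.30 in KO3, beside 0.02, 0.00 and 0.00 over all genes. Libraries of clone and WT did not overlap for 4 genes in KO1 (59.5% of all genes), 7 in KO2 (62.4%) and 6 in KO3 (58.0%). The 3 comparisons share the WT libraries, so the clones' differences from WT are not independent of each other.

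The summed normalized count of the 10 enzymes was 24130 ± 472 in KO1, 32403 ± 915 in KO2 and 26069 ± 294 in KO3, against 22057 ± 1755 in WT (SD, n = 3 each). Every library of KO2 and KO3 was above the highest WT library, replicate 1, which had 24078. KO1 overlapped with WT through that library alone, with 23594 to 24482 against 21177 and 20916 in the other WT libraries. Genes with high counts weigh most in this sum, and Cpt1a alone averaged 4621 in KO1 against 2103 in WT. As a share of all normalized counts the set took 0.0681% in KO1, 0.0928% in KO2 and 0.0704% in KO3, against 0.0581% in WT.

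**Figure D2:**
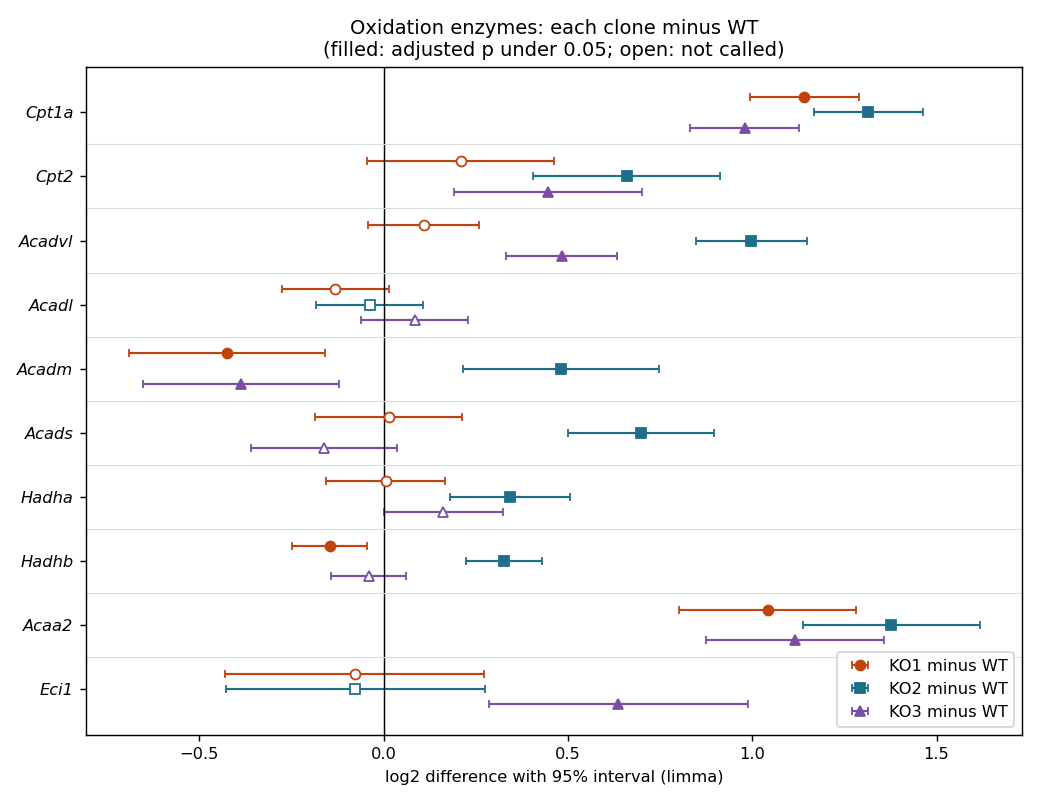
Log2 difference of each clone from WT for the 10 enzymes, with 95% intervals from limma. Filled symbols passed an adjusted p of 0.05. Cpt1a and Acaa2 lie near 1 in all 3 clones, and Acadm lies below 0 in KO1 and KO3 and above 0 in KO2.

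Cpt1a encodes the liver isoform of carnitine palmitoyltransferase 1, the malonyl-CoA-sensitive gate of the pathway (chromosome 19, 3322334 to 3385733). It had 4697, 4537 and 4630.0 normalized counts in KO1, 5101, 5252 and 5286 in KO2, and 4155, 3971 and 4277 in KO3, against 2377, 1967 and 1966 in WT. Every clone library was above every WT library. The log2 difference was 1.14 ± 0.07 in KO1 (SE, limma, adjusted p = 3.74e-08), 1.31 ± 0.07 in KO2 (adjusted p = 8.91e-09) and 0.98 ± 0.07 in KO3 (adjusted p = 1.18e-07). That is 2.21, 2.49 and 1.97 times WT. Median differences of the 20 tested genes on each side of Cpt1a were 0.21 in KO1, 0.23 in KO2 and 0.30 in KO3. Of the other CPT1 genes, Cpt1b, the muscle form, had 173 ± 23.6 in KO1, 142 ± 2.27 in KO2 and 165 ± 33.6 in KO3, against 254 ± 77.9 in WT. Cpt1c, the form known from brain, had 302 ± 34.0, 469 ± 5.60 and 354 ± 40.4 in the 3 clones in that order, against 268 ± 16.7 in WT. Cpt1b and Cpt1c fall outside the rule for naming genes and were chosen as paralogs after their values were seen.

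Cpt2, the inner-membrane partner (chromosome 4, 107903981 to 107923610), had 863, 958 and 828 normalized counts in KO1, 1195, 1152 and 1269 in KO2, and 1084, 953 and 1086 in KO3, against 920, 632 and 763 in WT. KO2 and KO3 were wholly above WT, and KO1 overlapped with it. Cpt2 rose by 0.66 ± 0.12 in KO2 (log2, SE, limma, adjusted p = 3.54e-04), while KO3 stood 0.45 ± 0.12 above WT (adjusted p = 0.00624). In KO1 the difference was 0.21 (limma, adjusted p = 0.155), with a 95% interval of -0.05 to 0.46. Without WT replicate 1, the highest WT library for this gene, it was 0.34 in KO1 and passed the test (limma, adjusted p = 0.00986).

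Among the acyl-CoA dehydrogenases, the very-long-chain enzyme rose in 2 clones, the medium-chain enzyme moved in opposite directions, the short-chain enzyme rose in KO2, and the long-chain enzyme passed in no clone as fitted on all 4 groups. Acadvl encodes the enzyme for very long chains, which sits on the inner membrane (chromosome 11, 70010183 to 70015411). It had 1976, 1777 and 1828 normalized counts in KO1, 3524, 3199 and 3617 in KO2, and 2462, 2290.2 and 2476 in KO3, against 1604, 1841 and 1733 in WT. KO2 and KO3 lay wholly above WT, with KO2 above KO3, while KO1 and WT overlapped. Acadvl rose by 1.00 ± 0.07 in KO2 (log2, SE, limma, adjusted p = 1.16e-07). It was 0.48 ± 0.07 higher in KO3 than in WT (adjusted p = 7.76e-05), and differed by 0.11 in KO1 (adjusted p = 0.208, 95% interval -0.04 to 0.26). Genes around Acadvl had median differences of 0.34 in KO2 and 0.22 in KO3. With those subtracted, Acadvl was 0.66 above WT in KO2 and 0.26 in KO3, and still passed the test (limma, adjusted p = 4.68e-06 and 0.00790).

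Dvl2 overlaps the 3′ end of Acadvl by 2119 bases on the opposite strand, and the sources used here do not give the strandedness of counting. Dvl2 had 2464 to 2648 normalized counts in KO1, 2049 to 2118 in KO2 and 2431 to 2639 in KO3, against 2059 to 2163 in WT. Dvl2 averaged 2574 ± 96.7 in KO1, 2077 ± 36.3 in KO2 and 2556 ± 111 in KO3, against 2106 ± 52.5 in WT (SD, n = 3 each), and its part in the Acadvl counts was not tested.

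Acadm encodes the medium-chain enzyme (chromosome 3, 153922357 to 153944632). It had 1962, 1920 and 2089 normalized counts in KO1, 3972, 3439 and 3796 in KO2, and 2005, 2011 and 2115 in KO3, against 3447, 2430.1 and 2279.6 in WT. KO1 and KO3 lay below all WT libraries, and KO2 overlapped with WT through WT replicate 1 alone. Acadm differed by -0.43 ± 0.12 in KO1 (log2, SE, limma, adjusted p = 0.0110), by -0.39 ± 0.12 in KO3 (adjusted p = 0.0173), and rose by 0.48 ± 0.12 in KO2 (adjusted p = 0.00452). Without WT replicate 1 the differences were -0.24 in KO1 (adjusted p = 0.00787), 0.66 in KO2 (adjusted p = 3.07e-06) and -0.20 in KO3 (adjusted p = 0.0189). The falls were thus smaller by more than 1.5 times on the log2 scale, and each call held. Genes around Acadm were also lower than in WT, with medians of -0.25 in KO1, -0.43 in KO2 and -0.42 in KO3. With those subtracted, Acadm differed by -0.17 in KO1 (limma, adjusted p = 0.257), 0.91 in KO2 (adjusted p = 3.11e-05) and 0.03 in KO3 (adjusted p = 0.853). With only KO3 and WT fitted, the KO3 fall also lost its call (adjusted p = 0.0754).

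Acads, the short-chain enzyme (chromosome 5, 115110299 to 115119346), had 1082, 926 and 1001 normalized counts in KO1, 1702, 1658 and 1480.5 in KO2, and 986, 841 and 841 in KO3, against 916, 1077 and 989 in WT. The KO2 libraries were above all others, and KO1 and KO3 overlapped with WT. It rose by 0.70 ± 0.09 in KO2 (log2, SE, limma, adjusted p = 2.93e-05), and the differences in KO1 (0.01, 95% interval -0.19 to 0.21) and KO3 (-0.16, -0.36 to 0.04) did not pass.

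Acadl, the long-chain enzyme (chromosome 1, 66830839 to 66863277), had 2047, 1893 and 2284 normalized counts in KO1, 2166, 2185 and 2274 in KO2, and 2379, 2395 and 2434 in KO3, against 2398, 2161 and 2249 in WT. All 3 clones overlapped with WT. Its log2 differences were -0.13 in KO1 (95% interval -0.28 to 0.01), -0.04 in KO2 (-0.18 to 0.11) and 0.08 in KO3 (-0.06 to 0.23), with limma adjusted p of 0.117, 0.645 and 0.312. Without KO1 replicate 3, its highest KO1 library, the KO1 difference was -0.20 and passed (limma, adjusted p = 0.0204). Genes around Acadl had median differences of -0.19 in KO1, -0.28 in KO2 and -0.07 in KO3. With those subtracted, Acadl was 0.24 above WT in KO2 and passed (adjusted p = 0.00764), and differed by 0.06 in KO1 (adjusted p = 0.490). Acadl was the only 1 of the 10 that passed in no clone, as did 19.3% of all genes tested. A pseudogene inside Acadl, Gm15793, held at most 21.7 normalized counts in any library.

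**Figure D3:**
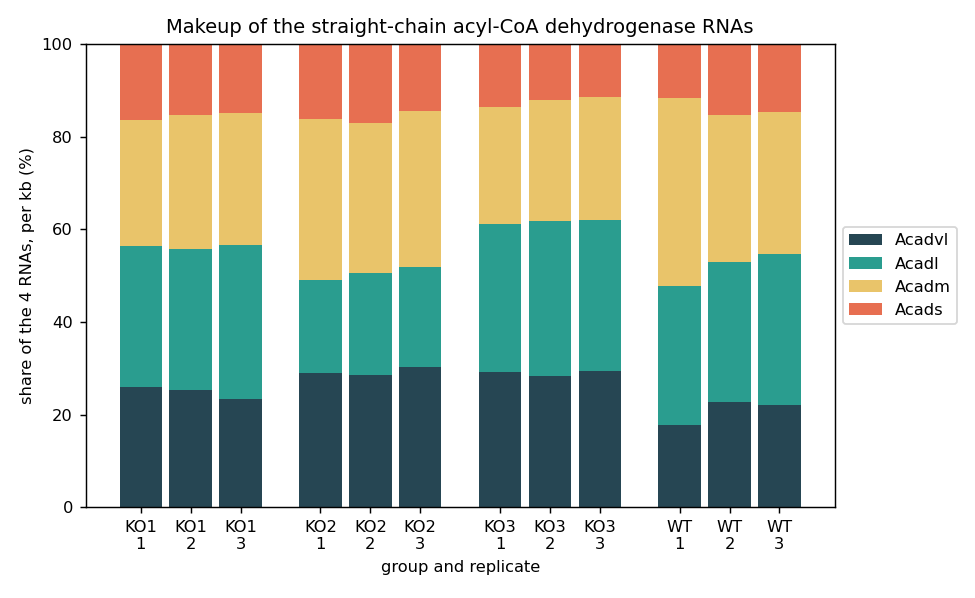
Share of Acadvl, Acadl, Acadm and Acads in their summed RNA in each library (stacked bars, %), with counts divided by the length of the longest coding transcript. Acadvl took more in every clone library than in any WT library, and Acadl took less in KO2 than in the other groups.

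Per kb of the longest coding transcript, Acadvl made up 24.9% ± 1.27 of the RNA of these 4 dehydrogenases in KO1, 29.3% ± 0.956 in KO2 and 28.9% ± 0.594 in KO3, against 20.9% ± 2.70 in WT (SD, n = 3 each). The lowest clone library had 23.5% and the highest WT library 22.7%. Acadl made up 31.4% ± 1.59 in KO1, 21.2% ± 0.961 in KO2 and 32.7% ± 0.735 in KO3, against 30.9% ± 1.36 in WT, so that KO2 alone lay below WT. Acadm held 28.2% ± 0.865 in KO1, 33.6% ± 1.10 in KO2 and 26.0% ± 0.694 in KO3, against 34.3% ± 5.31 in WT, where replicate 1 had 40.4%. Acads held 15.5% ± 0.806 in KO1, 15.9% ± 1.39 in KO2 and 12.4% ± 1.06 in KO3, against 13.9% ± 1.92 in WT. These shares carry no test.

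The trifunctional protein genes rose in KO2. Hadha, the alpha subunit with the hydratase and the long-chain dehydrogenase (chromosome 5, 30118304 to 30155162), had 7514, 7358 and 7552 normalized counts in KO1, 9851, 9168 and 9321 in KO2, and 8359, 8664 and 7986 in KO3, against 8574, 6949 and 6929 in WT. KO2 was above every WT library, and KO1 and KO3 overlapped with WT because of WT replicate 1. The log2 difference was 0.34 ± 0.07 in KO2 (SE, limma, adjusted p = 0.00157), 0.01 in KO1 (adjusted p = 0.957) and 0.16 in KO3 (adjusted p = 0.0840). Without WT replicate 1, Hadha was 0.26 above WT in KO3 and passed (limma, adjusted p = 4.05e-04). It also passed in KO3 after quantile normalization (0.21, adjusted p = 0.00952) and once the neighbours' median was subtracted (0.30, adjusted p = 0.00652).

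Hadhb, the beta subunit with the long-chain thiolase (chromosome 5, 30155248 to 30184593), had 2585, 2620.5 and 2678 normalized counts in KO1, 3589, 3549 and 3807 in KO2, and 2905, 2795 and 2785 in KO3, against 2988, 2937 and 2805 in WT. KO2 lay above and KO1 below all WT libraries. Hadhb rose by 0.33 ± 0.05 in KO2 (log2, SE, limma, adjusted p = 6.81e-05) and fell by 0.15 ± 0.05 in KO1 (adjusted p = 0.0196), and in KO3 it differed by -0.04 (adjusted p = 0.486). The fall in KO1 lost the call without WT replicate 2 (adjusted p = 0.0533), without KO1 replicate 1 (0.0650) and without KO1 replicate 2 (0.0534). It was also lost after quantile normalization (-0.07, adjusted p = 0.214) and once the neighbours' median was subtracted (-0.04, adjusted p = 0.628). Beside each other, Hadha over Hadhb in normalized counts was 2.85 ± 0.05 in KO1, 2.59 ± 0.15 in KO2 and 2.95 ± 0.13 in KO3, against 2.57 ± 0.27 in WT (SD, n = 3 each). WT replicate 1 had a ratio of 2.87 and the other WT libraries 2.37 and 2.47, so the clones were not separated from WT. Garem2 overlaps the 3′ end of Hadha by 75 bases on the opposite strand and had at most 196 normalized counts.

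Acaa2, the medium-chain thiolase (chromosome 18, 74779197 to 74806208), had 1130.2, 1071 and 1039.7 normalized counts in KO1, 1528, 1309 and 1265 in KO2, and 1119.5, 1055 and 1244 in KO3, against 441, 593 and 550.0 in WT. No clone library came near a WT library. The log2 difference was 1.04 ± 0.11 in KO1 (SE, limma, adjusted p = 6.93e-06), 1.38 ± 0.11 in KO2 (adjusted p = 4.28e-07) and 1.12 ± 0.11 in KO3 (adjusted p = 3.14e-06), or 2.06, 2.60 and 2.17 times WT. Genes around it had medians of 0.10, -0.07 and 0.11 in the clones in that order. Cpt1a and Acaa2 were the 2 members that rose in all 3 clones, a pattern shown by 12.9% of all genes tested.

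Eci1, the isomerase for unsaturated chains (chromosome 17, 24426641 to 24439348), had 458, 533 and 552 normalized counts in KO1, 604, 511 and 439 in KO2, and 876, 774 and 882 in KO3, against 413, 590.2 and 652 in WT. KO3 alone stood above WT. It rose by 0.64 ± 0.16 in KO3 (log2, SE, limma, adjusted p = 0.00504). The differences in KO1 and KO2 were -0.08 each, with 95% intervals of -0.43 to 0.27, and did not pass. The WT libraries of Eci1 spread widely, with 552 ± 124 (SD, n = 3), and the KO3 difference was 0.44 without WT replicate 1 (limma, adjusted p = 0.0114).

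In the authors' deposited table, the same members passed an adjusted p of 0.05 in the same directions in each clone. It gives log2 fold changes for Cpt1a of 1.13 in KO1, 1.31 in KO2 and 0.97 in KO3, and for Acaa2 of 1.02, 1.36 and 1.09 in that order.

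The clones also differed from each other. KO2 was higher than KO1 in 7 of the 10 enzymes and lower in 0, where 44.4% of all genes were called, 20.5% higher and 23.9% lower (limma, adjusted p under 0.05). KO3 was higher than KO1 in 3 and lower in 0, where 43.6% of all genes were called (20.3% and 23.4%). KO3 was higher than KO2 in 1 and lower in 5, where 53.1% were called (26.1% and 27.0%). Libraries did not overlap for 8 enzymes between KO2 and KO1 (59.7% of all genes), 6 between KO3 and KO1 (59.7%) and 10 between KO3 and KO2 (62.0%). The median differences were 0.39 for KO2 minus KO1, 0.13 for KO3 minus KO1 and -0.30 for KO3 minus KO2.

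**Figure D4:**
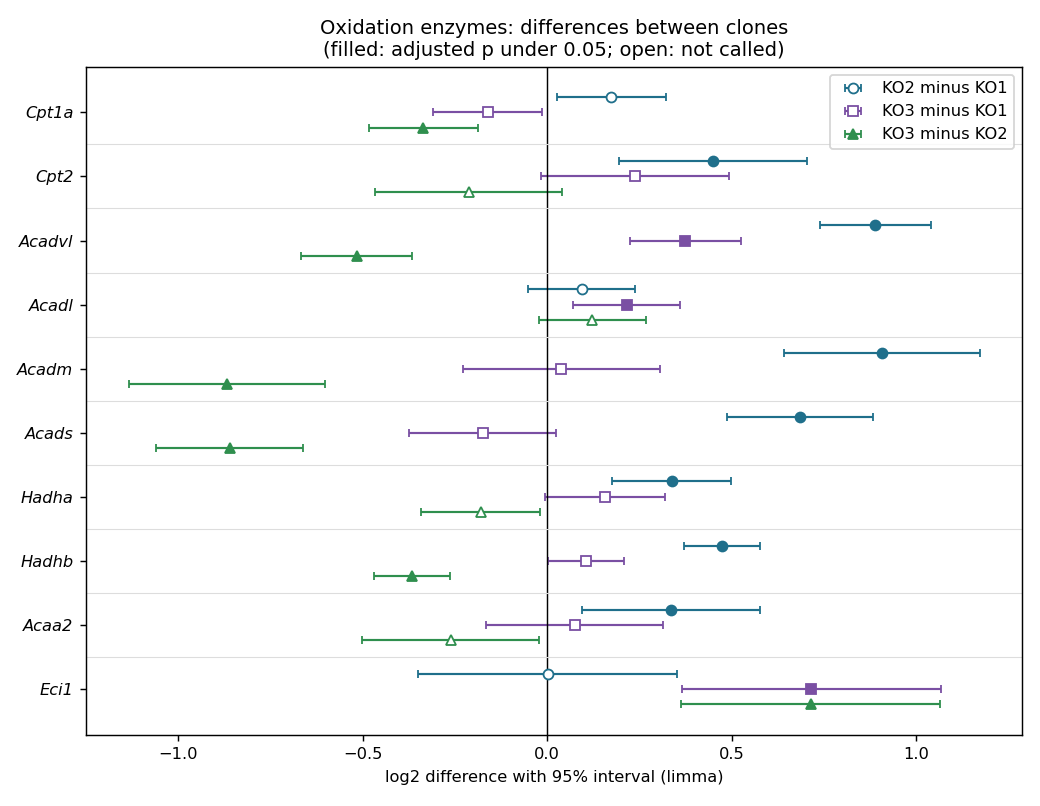
Log2 difference between clones for the 10 enzymes, with 95% intervals from limma. Filled symbols passed an adjusted p of 0.05. Acadvl, Acadm and Acads were higher in KO2 than in KO1, and lower in KO3 than in KO2.

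The widest gaps between clones were in the dehydrogenases. Acadm was 0.91 ± 0.12 higher in KO2 than in KO1 (log2, SE, limma, adjusted p = 7.79e-05) and lower in KO3 than in KO2 (-0.87, adjusted p = 7.06e-05), while KO3 minus KO1 was 0.04 with a 95% interval of -0.23 to 0.30. Acads was likewise highest in KO2, with 0.69 for KO2 minus KO1 (adjusted p = 6.95e-05) and -0.86 for KO3 minus KO2 (adjusted p = 6.61e-06), while KO3 minus KO1 was -0.17 (adjusted p = 0.144). Acadvl set all 3 clones apart, at 0.89 for KO2 minus KO1 (adjusted p = 8.48e-07), 0.37 for KO3 minus KO1 (adjusted p = 8.43e-04) and -0.52 for KO3 minus KO2 (adjusted p = 4.76e-05). Acadl was 0.22 higher in KO3 than in KO1 (adjusted p = 0.0198), a call lost without KO1 replicate 1 (0.0583), KO1 replicate 2 (0.0936) or KO3 replicate 3 (0.0543), and once the neighbours' median was subtracted (0.09, adjusted p = 0.315).

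Hadhb was 0.47 ± 0.05 higher in KO2 than in KO1 (log2, SE, limma, adjusted p = 6.73e-06) and lower in KO3 than in KO2 (-0.37, adjusted p = 3.32e-05). Hadha was 0.34 higher in KO2 than in KO1 (adjusted p = 0.00279), and its difference of -0.18 between KO3 and KO2 did not pass (adjusted p = 0.0581). That difference did pass after quantile normalization (-0.29, adjusted p = 0.00121), with edgeR (0.0394), with DESeq2 (0.0463) and with only those clones fitted (0.0186). At the entry step, Cpt1a was lower in KO3 than in KO2 (-0.34, adjusted p = 0.00119), and Cpt2 was 0.45 higher in KO2 than in KO1 (adjusted p = 0.00763). Cpt1a did not pass for KO2 minus KO1 (0.17, limma, adjusted p = 0.0552) or KO3 minus KO1 (-0.16, 0.0743). The first passed after quantile normalization (0.0110), with edgeR (0.0278), with DESeq2 (0.0347) and with only those clones fitted (0.00463). The second passed after quantile normalization (0.0130), with only those clones fitted (0.0107) and once the neighbours' median was subtracted (-0.26, adjusted p = 0.0281). Acaa2 was 0.34 higher in KO2 than in KO1 (adjusted p = 0.0263), a call lost without KO1 replicate 2 (0.0686), KO1 replicate 3 (0.0816) or KO2 replicate 1 (0.112). Between KO3 and KO2 Acaa2 differed by -0.26 (adjusted p = 0.0639), which passed after quantile normalization (0.0422), with edgeR (0.0460), with DESeq2 (0.0374) and once the neighbours' median was subtracted (-0.43, adjusted p = 0.00577). Eci1 went the other way and was higher in KO3, by 0.72 over KO1 (adjusted p = 0.00320) and 0.71 over KO2 (adjusted p = 0.00248), the second being 0.41 with the neighbours' median subtracted (adjusted p = 0.0375).

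Of the 10 genes, 4 rose in KO2 and in no other clone, namely Acadm, Acads, Hadha and Hadhb, as did 7.77% of all genes tested. Acadm and Hadhb rose in KO2 and fell in another clone. Of all genes tested, 8.38% rose in 1 clone, whichever it was, and fell in another.

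Levels of different genes were compared per kb of the longest coding transcript. In every group Hadha was highest, with 1861 ± 25.7 normalized counts per kb in KO1, 2352 ± 89.2 in KO2 and 2075 ± 84.5 in KO3, against 1863 ± 235 in WT (SD, n = 3 each). Cpt2 was lowest in KO1 (372 ± 28.4), KO3 (439 ± 32.1) and WT (325 ± 60.8), and Eci1 in KO2 (455 ± 72.7). In each group the library ranges of the lowest gene and the next lowest overlapped. In WT the order was Hadha, Hadhb, Acadm, Acadl, Acadvl, Acads, Cpt1a, Eci1, Acaa2 and Cpt2. There, the ranges of neighbours overlapped except between Hadha and Hadhb, Acadl and Acadvl, and Acadvl and Acads. Cpt1a ranked 4 in KO1, 5 in KO2 and 6 in KO3, against 7 in WT. Acadvl ranked 6, 4 and 4 in the clones in that order, against 5 in WT. The order depends on the length used: over the union of all annotated exons, Acadl ranked 1 and Hadha 2 in WT. Cpt2 then ranked 9 in KO1, 7 in KO3 and 8 in WT.

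Genes that serve the same pathway were counted in 8 lists of 72 genes, of which 59 were tested. Of these, KO1 had 29 rises and 10 falls, KO2 had 34 and 11, and KO3 had 32 and 10, beside the backgrounds given above.

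Around the carnitine step, KO1 had 4 rises and 2 falls among 11 tested genes, KO2 had 6 and 4, and KO3 had 4 and 4. Of all genes tested, 26.9% rose and 25.4% fell in KO1, 29.9% and 30.5% in KO2, and 26.8% and 27.3% in KO3. Those shares also stand beside the counts of each list below, and the counts by list carry no test. Mlycd, the decarboxylase that removes malonyl-CoA, the inhibitor of CPT1, was low in count, with 52.1 ± 2.47 in KO1, 74.5 ± 20.3 in KO2 and 69.2 ± 4.66 in KO3, against 12.8 ± 6.03 in WT. Its log2 differences were 2.05, 2.53 and 2.46 in that order of clones (limma, largest adjusted p = 1.43e-04). Slc22a5, the plasma-membrane carnitine transporter, rose by 0.71, 0.74 and 0.39, and Acsl1, an acyl-CoA synthetase, by 0.35, 0.68 and 0.33. Relative to their chromosomal neighbours, Slc22a5 was 0.46 in KO1 and lost its call in KO3 (0.25, adjusted p = 0.0868), and Acsl1 was 0.58 in KO1 and 0.66 in KO3. Acsl4, a synthetase known for arachidonate, rose by 0.27 in KO1, and its differences in KO2 (-0.23) and KO3 (-0.41) were falls that passed the test, the fall in KO2 not without WT replicate 1 (adjusted p = 0.0652) or KO2 replicate 1 (0.0697), nor after quantile normalization (-0.12, adjusted p = 0.112). Relative to its neighbours, Acsl4 was 0.16 in KO1, -0.38 in KO2 and 0.13 in KO3 (adjusted p = 0.115), so the KO3 fall turned. Slc25a20, the carrier that moves acylcarnitines between CPT1 and CPT2 and was named after its values were seen, had 559 ± 32.9 in KO1, 758 ± 52.0 in KO2 and 485 ± 15.2 in KO3, against 596 ± 34.0 in WT. It rose in KO2 (0.34, limma, adjusted p = 0.00206), differed by -0.29 in KO3 (adjusted p = 0.00641) and by -0.09 in KO1 (adjusted p = 0.338). After subtraction of the neighbours' median, Slc25a20 was 0.26 above WT in KO1 (adjusted p = 0.0171), 0.65 in KO2, and 0.05 in KO3 (adjusted p = 0.655).

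Other mitochondrial β-oxidation enzymes numbered 11, all tested, with 4 up and 2 down in KO1, 6 up and 1 down in KO2, and 4 up and 3 down in KO3. The 4 named here have the smallest largest adjusted p against WT over the 3 clones, and the genes of this list that fell are not named. Echs1, the short-chain hydratase, had rises of 0.46 in KO1, 0.34 in KO2 and 0.62 in KO3. Decr1, a reductase for polyunsaturated chains, rose by 0.25, 0.83 and 0.76, Acad10 by 0.62, 1.35 and 0.99, and Pcca, a propionyl-CoA carboxylase subunit, by 0.42, 0.43 and 0.50 (limma, largest adjusted p = 0.00718). Relative to their neighbours, Echs1 was 0.09 in KO1 (adjusted p = 0.286) and 0.02 in KO2 (adjusted p = 0.840), and in KO1 Pcca was 0.18 (adjusted p = 0.148) and Decr1 0.19 (adjusted p = 0.0821), none of which passed.

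The 4 genes listed for electron transfer from the dehydrogenases held 2 rises in KO1, 4 in KO2 and 3 in KO3, with 0 falls. Etfa and Etfb encode the subunits of the electron transfer flavoprotein. Etfa had 3689 ± 20.4 normalized counts in KO1, 3692 ± 32.6 in KO2 and 4013 ± 50.7 in KO3, against 2825 ± 113 in WT, and rose by 0.39, 0.39 and 0.51 (limma, largest adjusted p = 9.93e-06). Etfb rose by 0.50 in KO2 and 0.33 in KO3, with 0.14 in KO1 (adjusted p = 0.193). Less the median of its neighbours, neither rise passed, at 0.16 in KO2 (adjusted p = 0.284) and 0.29 in KO3 (adjusted p = 0.0705). Etfrf1, a regulator of the flavoprotein, rose by 0.26, 1.07 and 0.64, with the KO1 call lost without WT replicate 3 (adjusted p = 0.0531) or KO1 replicate 3 (0.0584) and with only KO1 and WT fitted (0.0541). With the neighbours' median subtracted it was 0.47 in KO1 and 1.03 in KO3. Etfdh, the enzyme that hands the electrons to ubiquinone, rose in KO2 (0.27, adjusted p = 0.00229), with 0.04 in KO1 and -0.07 in KO3. With the neighbours' median subtracted it passed in all 3 clones, at 0.32, 0.73 and 0.22.

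Of 4 branched-chain and other acyl-CoA dehydrogenases, 1 rose in KO1, 4 in KO2 and 2 in KO3, and 0 fell. Acad8, for valine breakdown, rose by 0.52 in KO2 and by 0.30 in KO1 and 0.28 in KO3. Its KO1 rise no longer passed without WT replicate 1 (adjusted p = 0.0633), without WT replicate 2 (0.102), KO1 replicate 1 (0.0953) or KO1 replicate 2 (0.0946). The KO3 call was lost without WT replicate 1 (0.0764), WT replicate 2 (0.123), KO3 replicate 2 (0.0578) or KO3 replicate 3 (0.131). After quantile normalization neither passed (0.0930 in KO1, 0.0685 in KO3), nor with only 2 groups fitted (0.0552 and 0.0715), nor, in KO1, with the neighbours' median subtracted (0.0980). Acadsb, for short branched chains, rose by 0.57 in KO2 and by 0.22 in KO3, the KO3 call being lost without WT replicate 2 (0.0621) or KO3 replicate 1 (0.0602). In KO1 it differed by 0.15 (limma, adjusted p = 0.0798), and by 0.21 without WT replicate 1 (0.0112) and 0.22 after quantile normalization (0.0117). Peroxisomal β-oxidation held 6 rises and 2 falls among 10 tested genes in KO1, 5 and 1 in KO2, and 6 and 0 in KO3. Abcd2, a peroxisomal fatty acid transporter, had 499 ± 87.7 in KO1, 476 ± 38.2 in KO2 and 476 ± 63.2 in KO3, against 95.3 ± 16.1 in WT, a log2 difference of 2.38, 2.32 and 2.32 (limma, largest adjusted p = 1.18e-07). Acox3 rose by 0.53, 0.75 and 0.30 and Scp2, a sterol carrier with thiolase activity, by 0.32, 0.43 and 0.21, the last lost with the neighbours' median subtracted (0.09, adjusted p = 0.258). Acox2, an oxidase for branched chains and bile acid precursors, had 104 ± 27.8 in KO1, 35.0 ± 3.78 in KO2 and 372 ± 17.2 in KO3, against 65.3 ± 4.74 in WT. It fell in KO2 and rose in KO3 and KO1, the KO1 call being lost without KO1 replicate 1 (adjusted p = 0.0726) or 2 (0.0659), with only KO1 and WT fitted (0.0571), and after quantile normalization (0.28, adjusted p = 0.258).

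**Figure D5:**
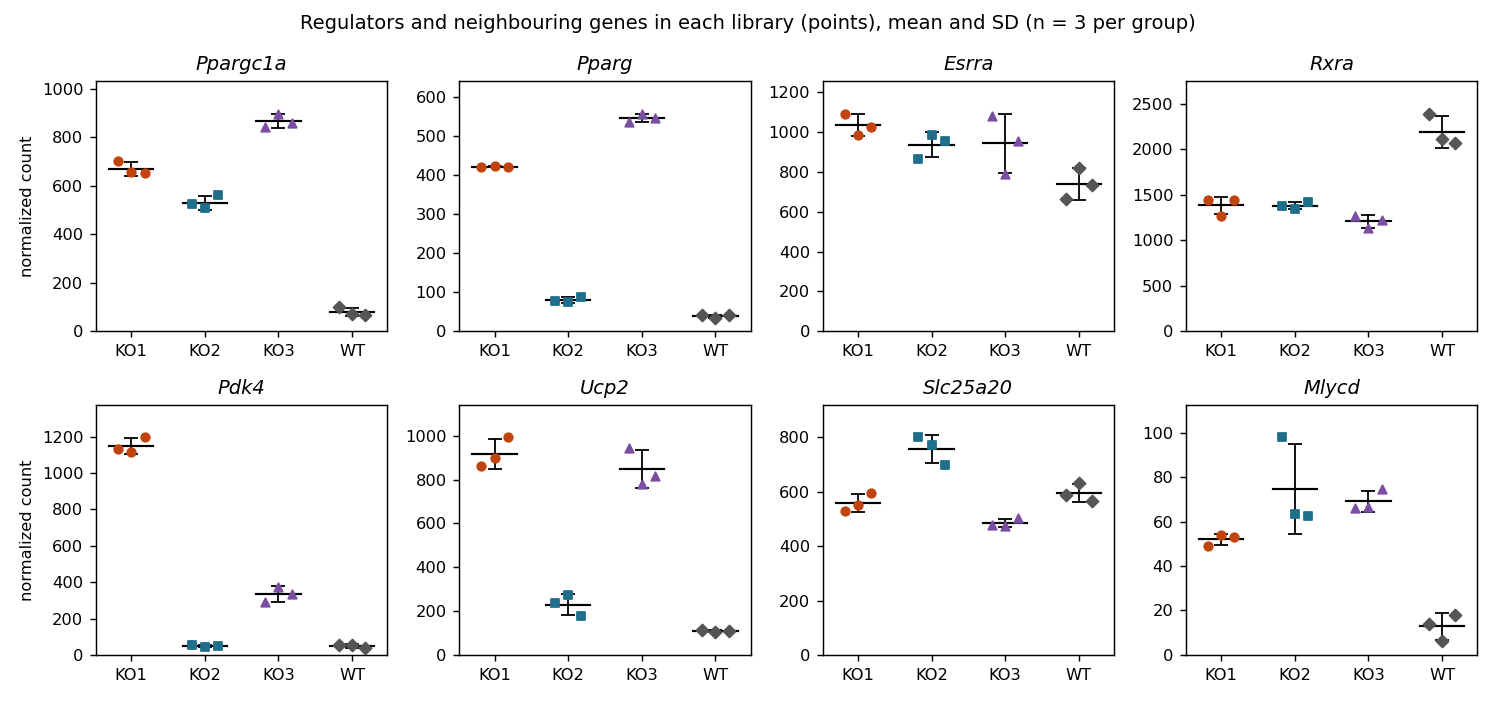
Normalized counts of 4 regulators and 4 genes of the neighbouring lists in each library (points), with group mean and SD (bars, n = 3), groups in the order KO1, KO2, KO3, WT. Ppargc1a was above WT in all 3 clones, while Pparg, Pdk4 and Ucp2 were far lower in KO2 than in KO1 and KO3.

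Among the regulators, RNAs for the coactivator PGC-1α and for PPARγ were among those higher in all 3 clones. Not every regulator that rose in all 3 clones is named here. Ppargc1a had 699.9, 654 and 652 normalized counts in KO1, 522, 506 and 561 in KO2, and 843, 897 and 857 in KO3, against 100.0, 69.4 and 68.6 in WT. The log2 difference was 3.08 in KO1, 2.75 in KO2 and 3.45 in KO3 (limma, largest adjusted p = 3.16e-09). KO2 minus KO1 was -0.34 (adjusted p = 0.0465) and did not pass when any library of these clones was left out (adjusted p 0.0564 to 0.132). Pparg, the adipogenic receptor, had 421, 424 and 420.0 in KO1, 76.5, 73.8 and 88.8 in KO2, and 537, 557 and 547 in KO3, against 41.2, 34.2 and 40.6 in WT. It rose by 3.42, 1.03 and 3.79 in that order (limma, largest adjusted p = 6.60e-06). Pparg was lower in KO2 than in KO1 (log2 difference -2.39, adjusted p = 1.02e-08). The part of Pparg and Ppargc1a in the levels of the oxidation enzymes was not tested. Ppara, the receptor that drives these genes in liver, was listed at 0 in all 12 libraries, and so was Rxrg. Ppard, a PPAR found in most tissues, had 1213 ± 132 in KO1, 1539.8 ± 224 in KO2 and 1309 ± 138 in KO3, against 1225 ± 254 in WT, and passed in no clone. Without WT replicate 1 it was 0.50 above WT in KO2 and passed (adjusted p = 0.00331), against 0.34 with it (adjusted p = 0.0592). The KO2 difference also passed after quantile normalization (0.0400), with edgeR (0.0462), with DESeq2 (0.0464) and once the neighbours' median was subtracted (0.56, adjusted p = 0.00640).

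Esrra, encoding ERRα, rose by 0.49 in KO1, 0.34 in KO2 and 0.34 in KO3 (limma, adjusted p under 0.05). Without WT replicate 1 it was 0.27 in KO2 and 0.27 in KO3 and no longer passed (adjusted p = 0.0606 and 0.0646). The KO2 call was also lost without KO2 replicate 2 (0.0649), and the KO3 call without KO3 replicate 1 (0.0954) or 3 (0.0571) or with only KO3 and WT fitted (0.0775). With the neighbours' median subtracted, Esrra was 0.27 in KO1 (adjusted p = 0.0433), 0.11 in KO2 (0.353) and 0.11 in KO3 (0.405). Rxra, the partner of the PPARs, fell by 0.66 in KO1, 0.66 in KO2 and 0.86 in KO3. Pprc1, a relative of PGC-1α, fell by 0.52, 0.93 and 0.52. Over the 14 regulators, 11 were tested, with KO1 at 5 up and 3 down, KO2 at 4 up and 3 down, and KO3 at 6 up and 2 down.

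Of 6 tested PPAR targets outside β-oxidation, KO1 had 6 rises and 0 falls, KO2 had 4 and 1, and KO3 had 6 and 0. Pdk4, the kinase that shuts off pyruvate dehydrogenase, had 1148 ± 42.2 in KO1, 49.5 ± 6.45 in KO2 and 334 ± 42.2 in KO3, against 48.1 ± 10.4 in WT, and was named after its values were seen. Ucp2, an inner-membrane carrier, had 917 ± 67.3, 229 ± 48.5 and 846 ± 86.7 in the clones, against 108 ± 5.20 in WT. Plin2, a lipid droplet coat protein, rose by 0.55 in KO1, 0.25 in KO2 and 0.81 in KO3. With the neighbours' median subtracted it was 0.32 in KO1 and no longer passed in KO2 (0.08, adjusted p = 0.272). Acot2, a mitochondrial thioesterase, rose by 0.70, 0.35 and 2.73, but it has a near-identical paralog, Acot1, and its counts are uncertain. Its KO2 rise was lost after quantile normalization (0.19, adjusted p = 0.0794) and once the neighbours' median was subtracted (0.24, adjusted p = 0.0629). Oxct1, which lets cells use ketone bodies, fell by 0.26 in KO1, by 0.64 in KO2 and by 0.41 in KO3, with the KO1 call lost without KO1 replicate 1 (adjusted p = 0.0561), 2 (0.0680) or 3 (0.0653), with only KO1 and WT fitted (0.0884) and after quantile normalization (-0.16, adjusted p = 0.126).

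Markers of other cell types were also summed. The summed count of 6 adipocyte markers was 6627 to 7021 in KO1, 3798 to 4063 in KO2 and 8391 to 8811 in KO3, against 1653 to 1953 in WT. Nearly all of it was Lpl, while Lep was at 0 in every library and Adipoq, Plin1, Cidec and Fabp4 held at most 14.9 normalized counts. The part of a shift in cell state in the oxidation enzymes was not tested. Summed counts of 5 hepatocyte markers were 12701 to 13427 in KO1, 135 to 188 in KO2 and 135 to 151 in KO3, against 138 to 180 in WT, and the KO1 level was that of Serpina1a, with Ttr at 0 in every library and Alb at most 0.879. For 6 muscle markers the sums were 168 to 175 in KO1, 70.9 to 104 in KO2 and 47.9 to 58.1 in KO3, against 869 to 1119 in WT, mostly Tnnt2. The 4 epithelial markers summed to 344 to 371 in KO1, 183 to 207 in KO2 and 305 to 327 in KO3, against 96.4 to 107 in WT. The 4 blood markers summed to at most 135 and the 3 endothelial markers to at most 207 in any library. In such bulk libraries, more cells of a kind and more RNA per cell cannot be told apart.

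Genes outside the lists whose 12 library values ran closest to an enzyme were ranked by the root mean square difference of log2 values centred on each gene's mean, over 10381 genes. For Cpt1a these were Car13 (0.09), Il6st (0.09), Cerk (0.10), Galnt2 (0.11) and Vcan (0.12). For Acaa2 they were Ech1 (0.09), Pir (0.11), Cd47 (0.12), Zfp12 (0.12) and Rnd2 (0.13). Ech1 encodes a dienoyl-CoA isomerase of fatty acid oxidation and differed from WT by 1.00 in KO1, 1.41 in KO2 and 0.96 in KO3. The ranking picked Ech1 for its closeness to Acaa2, so that closeness is no separate result. Cpt1a and Acaa2 differed from each other by 0.19 on the same measure.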

How the data were processed

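The 12 libraries hold total RNA after removal of cytoplasmic rRNA, with random priming, per the labels' protocols. The submitters' processing notes name DESeq2 1.24.0, Salmon 0.14.1, cutadapt and the build GRCm38 (mm10). The sources used here give neither settings nor strandedness. The authors deposited normalized counts, used as a signal that is never negative. Of each library's values, 99.94% to 99.99% were whole multiples of 1 step within 0.02, so the deposited signal is a read count divided by 1 size factor per library (recovered totals 32929242 to 42211807). Salmon gives estimated counts, which may have been rounded. The authors also deposited log2 fold changes with p-values and adjusted p-values for each clone against WT, per the file headers. There were 0 unused sample columns.

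Of 54392 gene identifiers, 54357 matched GENCODE M21, which gave names, lengths and GRCm38 coordinates. Genes with at least 10 normalized counts in at least 3 libraries (15073) were tested on log2(value + 1), a scale that understates changes of low genes, with limma 3.58.1 (R 4.3.3, trended, all 4 groups, two-sided) and Benjamini-Hochberg adjustment, threshold 0.05. Alternatives were edgeR 4.0.16 and DESeq2 1.42.0 on recovered reads, pseudocounts 0.5 and 5, no filter, quantile normalization, only 2 groups compared, a replicate block, each library left out, and subtraction of the median difference of 20 neighbouring genes on each side. Scripts were tested on simulated data. The members, lists and tests were chosen with earlier results of these data known. Named genes are the 10 enzymes, Crls1 and, from each list, up to 4 genes with the smallest largest adjusted p against WT. Some regulators are also named, as are the 5 genes closest to Cpt1a and to Acaa2 with a mean of at least 100. The use of the alternatives for the neighbouring genes, and the exon-union length, were added after seeing the data. A gene of the neighbouring lists is not reported here by name.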

Additional observations from a re-analysis of the deposited data

Results flagged for a closer look

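The following results differed between clones by a test of the difference itself (limma, adjusted p under 0.05 over 15073 genes), given as log2 differences. KO2 minus KO1 was 0.89 for Acadvl, 0.91 for Acadm, 0.69 for Acads, 0.47 for Hadhb, 0.45 for Cpt2, 0.34 for Hadha and 0.34 for Acaa2. KO3 minus KO2 was -0.34 for Cpt1a, -0.52 for Acadvl, -0.87 for Acadm, -0.86 for Acads and -0.37 for Hadhb, and 0.71 for Eci1. KO3 minus KO1 was 0.37 for Acadvl, 0.22 for Acadl and 0.72 for Eci1.

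Crls1, the edited gene, was 0.73 higher in KO2 than in KO1 and 0.85 higher in KO3 than in KO1. Ppargc1a had differences of -0.34 for KO2 minus KO1, 0.37 for KO3 minus KO1 and 0.71 for KO3 minus KO2. With 1 library of the clones compared left out, the adjusted p of KO2 minus KO1 was 0.0564 to 0.132 and that of KO3 minus KO1 was 0.0512 to 0.0894. Pparg differed by -2.39, 0.37 and 2.77 in those 3 comparisons, and its KO3 minus KO1 call was lost without KO1 replicate 3 (adjusted p = 0.0516) or KO3 replicate 2 (0.0546).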

How the results depend on the processing

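Counts of enzymes that rose against WT were 2 in KO1, 8 in KO2 and 5 in KO3, and stayed within 1.5 times of that under all alternatives, with ranges of 2 to 3, 8 to 9 and 5 to 6. The 2 that fell in KO1 were 1 after quantile normalization, 0 once the neighbours' median was subtracted, and 1 to 3 with a library left out. The 1 that fell in KO3 was 0 with only those 2 groups fitted and 0 with the neighbours' median subtracted. Between clones, KO3 exceeded KO1 in 6 genes instead of 3 and KO2 in 2 instead of 1 with only 2 groups fitted, and fell below KO1 in 1 instead of 0 after quantile normalization, 1 with only 2 groups and 1 with the neighbours' median subtracted. The only called enzyme to change sign was Acadm in KO3 (0.031 with the neighbours' median subtracted). Differences from WT uncalled as reported that changed sign with that subtraction were Acadvl (-0.14), Acadl (0.060) and Eci1 (0.21) in KO1, Acadl (0.24, which then passed, adjusted p = 0.00764) and Eci1 (0.36) in KO2 and Hadhb (0.073) in KO3, and Acadl (-0.092) in KO3 minus KO2. After quantile normalization these were Acads (-0.014) in KO1, Acadl (0.038) in KO2, Hadhb (0.0030) in KO3 and Eci1 (-0.0060) in KO2 minus KO1. Hadha in KO1 was -0.0023 with edgeR and -0.0025 with DESeq2. With a library left out, changes of sign were all among uncalled values. In KO1, Acads ranged from -0.044 to 0.072, Hadha from -0.046 to 0.11 and Eci1 from -0.27 to 0.055. In KO2, Acadl ranged from -0.073 to 0.0023 and Eci1 from -0.27 to 0.056, and Eci1 in KO2 minus KO1 from -0.11 to 0.12. Etfdh ranged from -0.0071 to 0.11 in KO1 and -0.12 to 0.0011 in KO3, Ppard from -0.092 to 0.16 in KO1 and Pdk4 from -0.13 to 0.17 in KO2. Among the other genes named, the neighbours' median turned Slc25a20 (0.26) and Etfb (-0.24) in KO1, Pdk4 (-0.077) in KO2, Acsl4 (0.13), Slc25a20 (0.047) and Etfdh (0.22) in KO3 and Ppard (0.13) in KO1, and quantile normalization turned Ppard (0.0014) in KO1 and Pdk4 (-0.13) in KO2. The causes were not tested.

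Replicate numbers are shared between groups but do not pair libraries: deviations of same-numbered libraries correlated at -0.22 to 0.12, those of others at -0.13 to 0.24, and 3 of 12 libraries correlated best with their own number. With a replicate block the counts against WT were again 2, 8 and 5 higher and 2, 0 and 1 lower. Among the other genes named, the block ended the call of Ppargc1a between KO2 and KO1 (adjusted p = 0.0555), and Ppard in KO2 passed (0.0414).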
